A study of Gasterosteus aculeatus with 34 samples.

Results

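The tradeoff males were set against the control males in both forebrain regions, which took 16 of the 34 libraries of the series and 8 of its 17 males. Membership followed the sample titles: tradeoff males 302, 306, 321 and 323 and control males 303, 304, 307 and 308 each gave a telencephalon and a diencephalon library, so that every group held 4 libraries. In the final trial, tradeoff males faced a gravid female in one flask and a rival male in breeding colour in the other, whereas control males faced empty flasks. All were laboratory-reared males of the white ecotype of the threespine stickleback (Gasterosteus aculeatus), offspring of wild-caught parents, and their age was not given. Over 8 trials in shuffled order each male, controls included, had met every treatment, and the brain was taken 60 minutes after the final one. The control is therefore a male with social experience whose latest trial was empty, and each library is the bulk RNA of a dissected region, in which fewer cells of a type and less RNA per cell cannot be told apart. The courtship group (4 males, female alone) and the challenge group (5 males, rival alone) entered the fits for the shared spread, served to define genes enriched in a region, and are set beside single genes.

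A nesting male stickleback defends a territory against rivals and courts females that enter it, so the stimuli call for attack and for courtship at the same moment. The telencephalon of a fish holds pallial and subpallial areas for learning, reward and the weighing of social stimuli. The diencephalon holds the hypothalamus and thalamus, whose neurons make neuropeptides and steer hormones, aggression and reproduction. The study asks whether the combined challenge and opportunity leaves a mark on gene expression in these regions. Genes are given by the identifiers of the files, which pair no names with them: 0 of 22295 gene models matched the available RefSeq table, so no gene role can be stated.

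Gene models received 25242313 to 30682988 counts per telencephalon library in tradeoff males and 22802875 to 30799674 in control males, and 17758833 to 34384860 against 17676221 to 25149326 per diencephalon library. Of 14 library measures (depth, detected models, read shares, chrY share and the share of the 100 most abundant models, each per region), 0 passed a test of tradeoff against control (two-sided exact permutation tests over 4 and 4 males, lowest p = 0.2, Benjamini-Hochberg adjusted 0.943; the smallest p this design allows is 0.0286). With that smallest p, a single measure fully apart could not have passed after adjustment over 14. The 0 therefore does not show that the libraries were alike. The region labels were checked with genes over 8-fold enriched in a region in the 9 courtship and challenge males, 66 for the telencephalon and 211 for the diencephalon. The 66 telencephalon genes together held 2960 to 6391 CPM in the 8 telencephalon libraries and 422 to 1492 CPM in the 8 diencephalon libraries, without overlap. The 211 diencephalon genes held 4128 to 13077 CPM in the 4 tradeoff and 6598 to 11407 CPM in the 4 control diencephalon libraries. The lowest of these, tradeoff male 323 at 4128 CPM, was below the highest telencephalon libraries, so that this list did not separate the regions fully. CPM are counts scaled to the library's total of gene counts in these sums. In levels of single genes they are scaled to the library's total over the genes tested in that region, times its TMM factor (a correction for library composition).

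Some libraries held genes of the other region. In telencephalon libraries the 211 diencephalon genes together stood at 198, 234, 4429 and 531 CPM in tradeoff males 302, 306, 321 and 323, and at 166, 4200, 123 and 2127 CPM in control males 303, 304, 307 and 308. Tradeoff male 321 and control males 304 and 308 were thus high and the other 5 low. Control male 304 was also the lowest of the 8 in the telencephalon genes of that library (2960 CPM) and the highest in those of its diencephalon library (1492 CPM). Tradeoff diencephalon libraries held 446 to 562 CPM of these telencephalon genes and the other 3 control ones 422 to 496 CPM. One diencephalon gene, ENSGACG00000009153, singled out here for its values, was high in the same libraries. It stood at 1278 CPM in the telencephalon of tradeoff male 321 and at 5.29, 23.9 and 107 CPM in tradeoff males 302, 306 and 323. It stood at 683 and 1308 CPM in control males 304 and 308, and at 8.33 and 0.960 CPM in control males 303 and 307. Counts of such a gene enter the sums above, 1308 CPM beside a sum of 2127 CPM in male 308, so the gene and the sums are not separate observations. In tradeoff males 321 and 323 its diencephalon levels, 739 and 62.3 CPM, were below those of the telencephalon. In the other tradeoff and control males they were above. The telencephalon libraries of males 304, 308 and 321 stand on either side of the comparison, so results that rest on them are given with and without them. A setting without them and without that of challenge male 298 (3298 CPM) was added after seeing the data. Of the 17 telencephalon libraries, those left out were the highest in the diencephalon genes, so a change in such genes is partly built in.

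**Figure D1:**
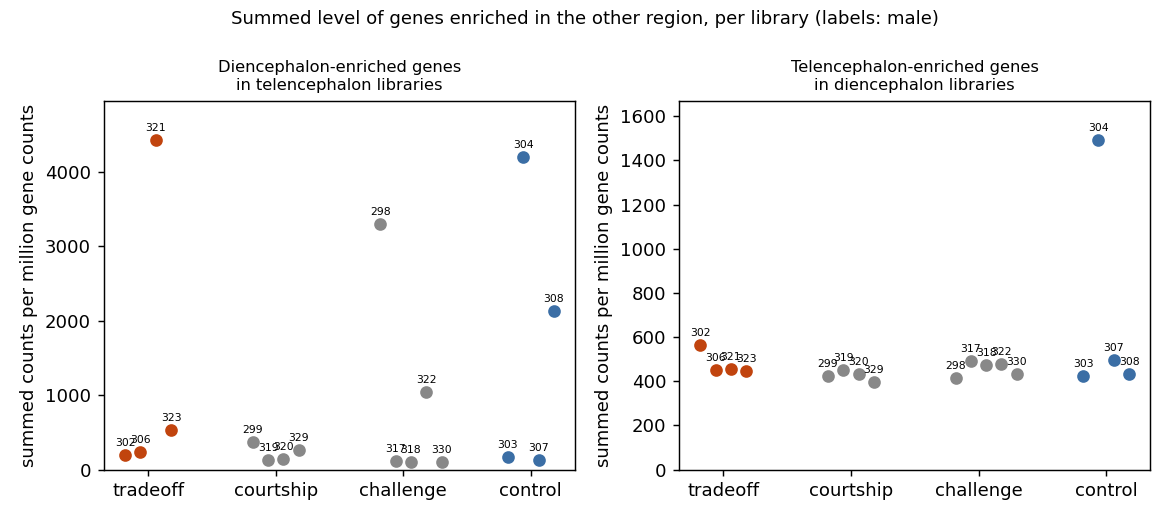
Summed counts of genes enriched in the other region, relative to each library's gene counts, in CPM (vertical axes, linear), in each telencephalon library (left) and diencephalon library (right), with libraries placed by final-trial treatment and labelled by male. In the telencephalon, tradeoff male 321 at 4429 CPM and control male 304 at 4200 CPM are the highest, and in the diencephalon control male 304 stands alone at 1492 CPM.

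In the telencephalon, no gene passed the test of tradeoff against control once p was adjusted over all genes. Of 18277 genes tested, 0 (0%) had an adjusted p under 0.05 in edgeR's quasi-likelihood test, with a smallest adjusted p of 0.9997. At an unadjusted p under 0.05, 502 genes (2.75% of the genes tested) were listed, with 194 higher (1.06%) and 308 lower (1.69%) in tradeoff males. DESeq2 called 1 gene, ENSGACG00000008991, lower in tradeoff males. Its counts were 0 in all 4 tradeoff libraries and 0, 245, 0 and 1 in control males 303, 304, 307 and 308, so that this call rests on control male 304. Challenge males 322 and 298 held 197 and 18 counts, and the other courtship and challenge males 0 or 1. The low-count filter of the edgeR fit left this gene out of the telencephalon. limma voom called 0. All 4 tradeoff males lay above all 4 control males in 140 genes (0.766%) and below them in 179 (0.979%), with median log2 folds of 0.29 and -0.35. With exchangeable males, groups of 4 and 4 lie apart with probability 0.0286, both directions together, and an unadjusted p under 0.05 has probability 0.05. The shares of genes found were below these, here and in the diencephalon. Groups that do not overlap, or such a p, therefore do not mark a difference by themselves. Among the 16463 genes averaging 1 CPM or more, the 95% interval of the fold lay within 2-fold of no change in 88.0%.

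The 4 telencephalon genes with the lowest p in each direction, 2 higher and 2 lower, show the size of the differences. ENSGACG00000006374 stood at 20.8, 25.05, 19.8 and 23.5 CPM in tradeoff males 302, 306, 321 and 323, against 17.4, 17.0, 15.0 and 18.3 CPM in control males 303, 304, 307 and 308 (log2 fold 0.40, SE 0.10, edgeR adjusted p = 0.9997). Every tradeoff male was above every control male. Courtship males ranged from 17.9 to 22.1 CPM and challenge males from 20.2 to 22.6 CPM, so that both overlapped the tradeoff males. ENSGACG00000012805 stood at 8.99, 7.80, 8.27 and 10.5 CPM in the tradeoff males and at 4.89, 6.09, 5.83 and 5.02 CPM in the control males (log2 fold 0.70, SE 0.17, edgeR adjusted p = 0.9997). Again the groups did not overlap, and courtship males (5.80 to 9.76 CPM) and challenge males (6.28 to 8.56 CPM) spanned the gap between them.

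ENSGACG00000007230 was the telencephalon gene with the lowest p. It stood at 4.40, 4.74, 2.69 and 5.03 CPM in tradeoff males and at 4.71, 10.4, 8.21 and 15.7 CPM in control males (log2 fold -1.21, SE 0.27, edgeR adjusted p = 0.9997). The groups overlapped, since control male 303 was as low as the tradeoff males and the other 3 controls were higher. Its 2 highest controls, 304 and 308, are the control libraries high in diencephalon genes. Tradeoff male 321, whose telencephalon library was also high in diencephalon genes, had the lowest level of this gene (2.69 CPM). Without the telencephalon libraries of males 298, 304, 308 and 321 the log2 fold was -0.45, no longer with an unadjusted p under 0.05. That setting left out the 2 highest controls and the lowest tradeoff male of this gene, so a smaller fold was largely built in. Over the alternatives, the adjusted p in edgeR, DESeq2 or limma ran from 0.123 (edgeR, without control male 303) upward. Challenge males, at 4.38 to 4.83 CPM, were in the range of the tradeoff males. ENSGACG00000012252 stood at 5.79, 6.27, 7.14 and 6.72 CPM in tradeoff males against 8.94, 8.80, 10.8 and 9.36 CPM in control males (log2 fold -0.55, SE 0.14, edgeR adjusted p = 0.9997), and the groups did not overlap.

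The lower side of the telencephalon comparison held many genes of the diencephalon. Of the 114 of the 211 diencephalon-enriched genes that passed the low-count filter, 36 were lower and 0 higher in tradeoff males at an unadjusted p under 0.05, which is 31.6% of the 114 against 2.75% of all genes tested. Their median log2 fold was -1.78, where the median over all genes was -0.01. The filter can admit such a gene through the libraries in which it is high, so this is a description of those that passed. Without control male 304, 1 was lower and 3 higher, and the median was 0.08. This male was the control highest in these genes, so that change was partly built in. Without the telencephalon libraries of males 298, 304, 308 and 321, 0 of the 117 that then passed the filter were lower and 4 higher, and the median was 0.40, of the opposite sign. That setting left out the libraries highest in these same genes, so the loss of lower genes was largely built in and tests nothing. Over all genes, 199 were lower and 155 higher without control male 304. Without those 4 libraries, of which that of male 298 is from the challenge group, 227 were lower and 309 higher, so that higher genes then outnumbered lower ones. Of the 16463 telencephalon genes averaging 1 CPM or more, 202 had a fold over 2. Of these 202 genes, 151 were lower, and 63 of the 151 were diencephalon-enriched. Leaving out a single male brought 114 of the 202 to a log2 fold under 0.5 in their direction, and that male was control male 304 in 75 of them. edgeR called 0 genes in each of these settings.

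In the diencephalon, too, no gene passed. Of 18399 genes tested, 0 (0%) had an adjusted p under 0.05 in edgeR, with a smallest adjusted p of 0.9995, and DESeq2 and limma voom called 0. At an unadjusted p under 0.05, 578 genes (3.14%) were listed, with 317 higher (1.72%) and 261 lower (1.42%) in tradeoff males. The groups did not overlap in 177 higher genes (0.962%) and 149 lower genes (0.81%), with median log2 folds of 0.29 and -0.23. The 95% interval lay within 2-fold of no change in 93.8% of 16993 genes averaging 1 CPM or more. Genes with a fold over 2 numbered 83 of these 16993, against 202 of 16463 in the telencephalon. Leaving out a single male brought 19 of the 83 under a log2 fold of 0.5, against 114 of the 202. In 75 of those 114 that male was control male 304. How many telencephalon genes have a fold over 2 in a fit without this male was not counted. Of the 47 of 66 telencephalon-enriched genes that passed the filter here, 7 were lower and 0 higher at an unadjusted p under 0.05 (14.9% of the 47, median log2 fold -0.40, over all genes -0.00). Here too the filter can admit a gene through the libraries in which it is high, so this describes those that passed. Without control male 304, 0 were lower and 3 higher, with a median of 0.02. The diencephalon library of this male was the highest in these genes (1492 CPM), so the loss of lower genes was largely built in.

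ENSGACG00000000155 was the diencephalon gene with the lowest p among those higher in tradeoff males. It stood at 2.47, 1.99, 3.86 and 4.03 CPM in tradeoff males and at 1.26, 1.43, 1.66 and 1.49 CPM in control males (log2 fold 1.07, SE 0.27, edgeR adjusted p = 0.9995). Its groups did not overlap, and tradeoff males 302, 321 and 323 were above every courtship male (up to 2.43 CPM) and challenge male (up to 2.37 CPM). In the telencephalon the groups overlapped, at 1.16 to 2.43 CPM in tradeoff males against 0.344 to 1.76 CPM in control males. ENSGACG00000020593 stood at 29.0, 26.9, 22.4 and 29.5 CPM in tradeoff males against 21.6, 19.0, 20.0 and 23.4 CPM in control males (log2 fold 0.36, SE 0.10, edgeR adjusted p = 0.9995). Tradeoff male 321 overlapped the controls. The log2 fold of this gene in the telencephalon was 0.35 (SE 0.14).

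The lower diencephalon gene with the lowest p was ENSGACG00000002649, at 3.94, 4.53, 4.53 and 4.88 CPM in tradeoff males and at 6.64, 6.21, 6.53 and 6.70 CPM in control males (log2 fold -0.54, SE 0.12, edgeR adjusted p = 0.9995). The groups lay apart with little spread within either. Courtship males stood at 5.38 to 6.21 CPM and challenge males at 3.50 to 4.87 CPM. In the telencephalon the same gene had a log2 fold of -0.25 (SE 0.22), and of 0.00 without control male 304. ENSGACG00000012928 stood at 17.8, 21.8, 21.6 and 17.9 CPM in tradeoff males against 24.2, 24.4, 27.9 and 25.8 CPM in control males (log2 fold -0.37, SE 0.09, edgeR adjusted p = 0.9995), again without overlap. Courtship males (21.5 to 26.3 CPM) and challenge males (20.9 to 24.3 CPM) lay between and across both groups.

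**Figure D2:**
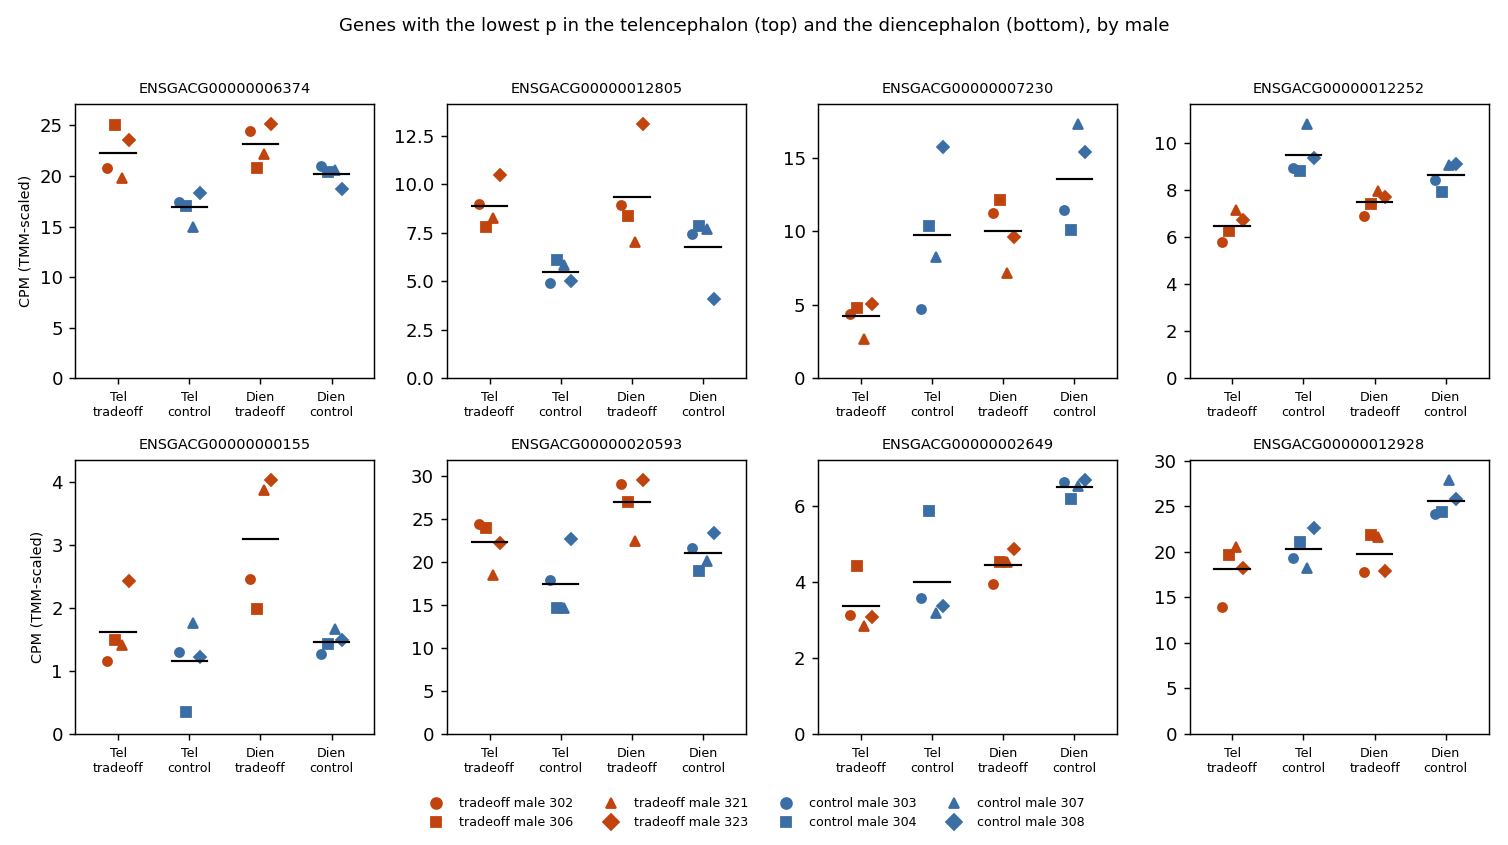
Level of each gene in CPM (vertical axes, linear from 0) in the libraries of the 4 tradeoff and 4 control males, telencephalon (Tel) and diencephalon (Dien), for the genes of lowest p in the telencephalon (top) and the diencephalon (bottom). Symbols mark males and bars the mean of 4; ENSGACG00000002649 lies at 3.94 to 4.88 CPM in the diencephalon of tradeoff males and at 6.21 to 6.70 CPM in that of control males, whereas its telencephalon groups overlap.

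Models placed on the Y chromosome (chrY), which only males carry, had an unadjusted p under 0.05 in 6 of 444 cases in the telencephalon (1.35%, 3 higher and 3 lower) and in 4 of 440 in the diencephalon (0.909%, 3 higher and 1 lower). The Ensembl genes had such a p in 2.80% of telencephalon and 3.20% of diencephalon cases. The median log2 fold of the chrY models was -0.01 in the telencephalon and 0.01 in the diencephalon. Reads of a chrY model with a near-identical copy elsewhere may be split or dropped, so these values are uncertain.

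The fold changes of the regions were then compared over genes, since each male gave both. Tradeoff log2 folds of the telencephalon and the diencephalon correlated over 16270 genes averaging 1 CPM or more in both (Pearson r = 0.31, Spearman rho = 0.24), and 58.0% of genes had the same sign. This is a description over genes, which are not independent, and the regions share their males. With a male left out of both regions, r ran from 0.24 to 0.46 (0.40 without control male 304). When the telencephalon fold came from 2 tradeoff and 2 control males and the diencephalon fold from the other 2 and 2, the median r over the 36 ways to choose them was -0.06 (-0.19 to 0.11). With the same 2 and 2 males in both regions, a setting added after seeing the data, the median was 0.36 (0.07 to 0.66), and the ranges overlapped. The 36 ways of each setting draw on the same males again and again, so their ranges are not independent spreads. Folds were spread more widely in the telencephalon (SD 0.29 on the log2 scale over these genes) than in the diencephalon (SD 0.20). The 202 telencephalon genes with a fold over 2 include the 75 that fell under a log2 fold of 0.5 without control male 304. The SD without this male was not computed.

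**Figure D3:**
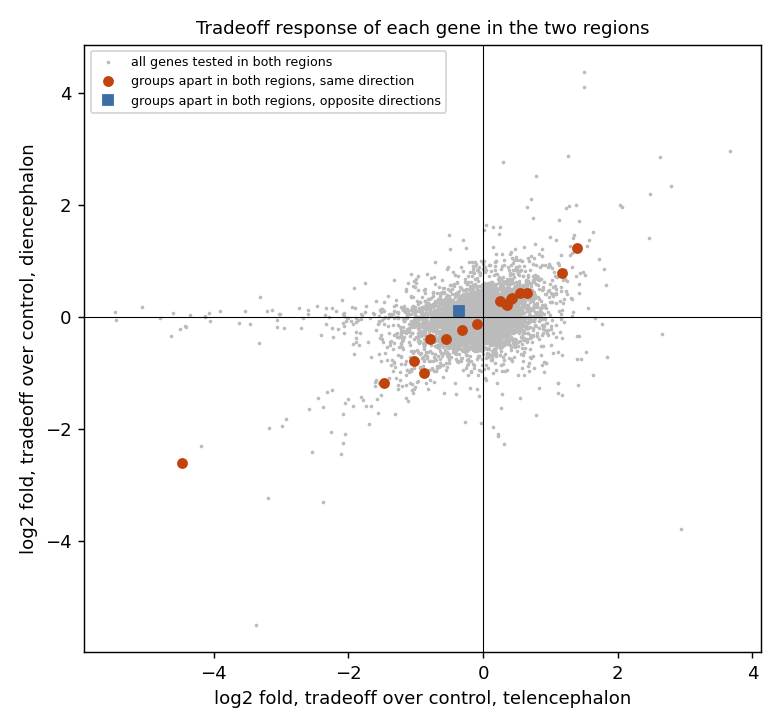
Log2 fold, tradeoff over control, of each of 17959 genes tested in both regions, telencephalon on the horizontal and diencephalon on the vertical axis. Round marks show the 17 genes whose groups lie apart in both regions in the same direction and the square the 1 gene in opposite directions; the arm of points to the left holds genes with a negative telencephalon log2 fold and a diencephalon one near 0.

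Of the 17959 genes tested in both regions, 66 had an unadjusted p under 0.05 in both, which is 13.5% of the 488 telencephalon genes and 11.8% of the 559 diencephalon genes with such a p. In 63 the direction was the same, with 27 genes higher in both (0.15% of the genes tested) and 36 lower in both (0.2%), and in 3 it was opposite (0.0167%). Over all genes tested in a region, 2.75% had such a p in the telencephalon and 3.14% in the diencephalon. Both lists draw on the same 8 males, so their overlap and shared direction are not those of separate samples. Without control male 304, 16 of the 27 and 23 of the 36 had such a p in both regions. The groups lay apart in both regions in 9 genes that were higher (0.0501%) and 8 that were lower (0.0445%) in tradeoff males, and lay apart in opposite directions in 1 gene (0.00557%). Of the 17 with 1 direction, 16 are Ensembl genes and 1 is a chrY model. Their log2 folds ran from 0.25 to 1.40 and from -4.47 to -0.09 in the telencephalon, and from 0.22 to 1.24 and from -2.61 to -0.12 in the diencephalon. In neither region did any of the 17 separate the tradeoff males from all 9 courtship and challenge males as well (0 of 9 and 0 of 8). The share of all genes that do so was not counted, so these counts do not set the 17 apart from other genes. The gene apart in opposite directions, ENSGACG00000019746, stood at 19.4 to 28.9 CPM in tradeoff males and 29.3 to 44.7 CPM in control males in the telencephalon. In the diencephalon it stood at 59.9 to 62.04 CPM in tradeoff males and 53.6 to 59.1 CPM in control males. Its groups were close to touching in both regions, and it was picked out after its values were known.

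ENSGACG00000009538 had the lowest p in both regions together among genes higher in tradeoff males. In the telencephalon it stood at 60.5, 65.8, 60.5 and 66.2 CPM in tradeoff males 302, 306, 321 and 323 and at 56.4, 40.0, 39.5 and 37.3 CPM in control males 303, 304, 307 and 308 (log2 fold 0.55, SE 0.16). In the diencephalon the tradeoff males stood at 57.0, 63.7, 61.1 and 65.2 CPM, and the control males at 55.7, 39.4, 40.8 and 46.6 CPM (log2 fold 0.44, SE 0.12). The groups did not overlap in either region. Tradeoff males 323 and 306 were highest and control male 303 was the highest control in both, while the other 3 controls changed order. Challenge males reached 70.7 CPM in the telencephalon, above the tradeoff males, and 59.1 CPM in the diencephalon, within their range.

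ENSGACG00000014858 differed by male within the tradeoff group. It stood at 18.2 and 26.8 CPM in the telencephalon of tradeoff males 302 and 306 and at 0.546 and 0.247 CPM in tradeoff males 321 and 323, against 0.567, 1.34, 1.16 and 0.525 CPM in the control males (log2 fold 3.66, SE 1.05). In the diencephalon the same tradeoff males 302 and 306 held 15.5 and 19.7 CPM, males 321 and 323 held 0.763 and 0.813 CPM, and the control males 1.095 to 1.21 CPM (log2 fold 2.97, SE 0.82). No courtship or challenge male exceeded 1.16 CPM in the telencephalon or 2.06 CPM in the diencephalon. The fold of this gene thus rests on 2 of the 4 tradeoff males, and the other 2 were at or below the level of the controls.

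Among genes lower in both regions, ENSGACG00000014011 stood at 3.13, 1.59, 2.81 and 2.60 CPM in the telencephalon of tradeoff males and at 4.23, 4.64, 3.94 and 5.68 CPM in control males (log2 fold -0.87, SE 0.30). Diencephalon levels were 5.53, 3.42, 2.95 and 1.78 CPM in tradeoff males and 5.71, 6.21, 8.52 and 6.58 CPM in control males (log2 fold -0.99, SE 0.26). The groups lay apart in both regions, though tradeoff male 302 came close to control male 303 in the diencephalon. ENSGACG00000007323 stood at 17.1 to 20.8 CPM in tradeoff males and 22.1 to 30.8 CPM in control males in the telencephalon (log2 fold -0.41, SE 0.15). Its diencephalon levels were 25.6 to 31.1 CPM in tradeoff males and 29.1 to 44.3 CPM in control males (log2 fold -0.40, SE 0.12), where control male 304 overlapped the tradeoff males. The edgeR adjusted p of all 4 genes was 0.9997 for the telencephalon and 0.9995 for the diencephalon.

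**Figure D4:**
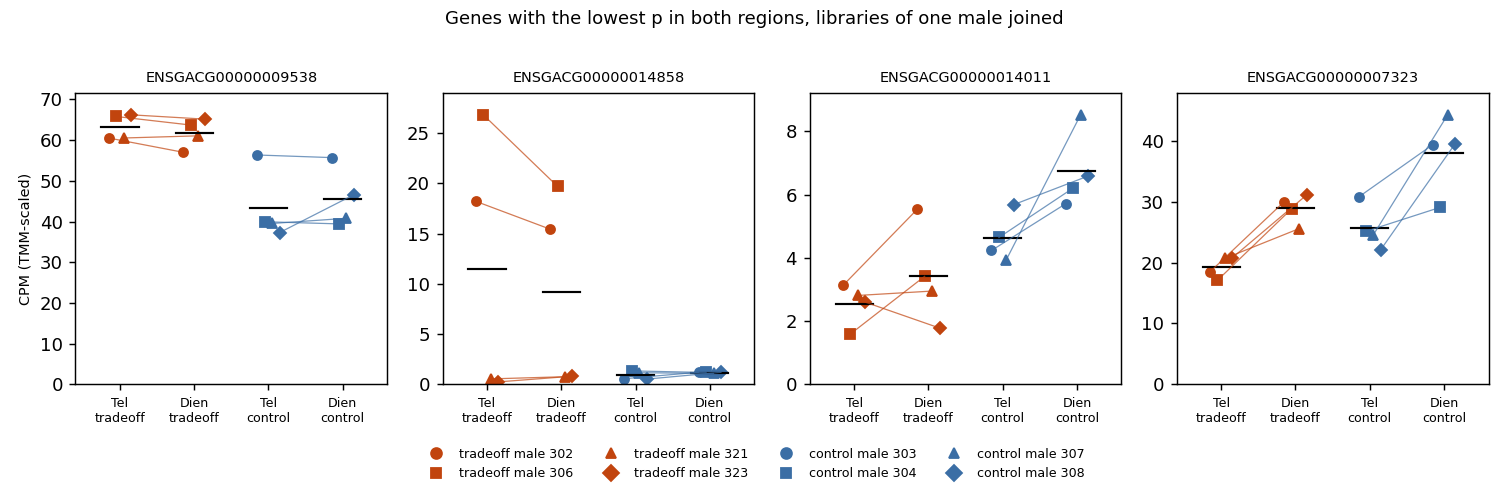
Level in CPM (vertical axes, linear from 0) of the 4 genes of lowest p in both regions together, with the telencephalon (Tel) and diencephalon (Dien) library of each male joined by a line and bars for the mean of 4. ENSGACG00000014858 is high in both regions of tradeoff males 302 and 306 and of no other male plotted, and in ENSGACG00000009538 control male 303 lies just under the tradeoff males in both regions (56.4 and 55.7 CPM).

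Counts of both regions were also summed per male, so that each male gave 1 value. Of 19136 genes, 0 (0%) passed an adjusted p of 0.05 in edgeR (smallest 0.9999). At an unadjusted p under 0.05, 450 (2.35%) were listed, with 241 higher (1.26%) and 209 lower (1.09%), and both DESeq2 and limma on the mean of the regions called 0. The genes of lowest p on the higher side were ENSGACG00000006374 (log2 fold 0.29, SE 0.07) and ENSGACG00000008334 (log2 fold 0.30, SE 0.08). ENSGACG00000008334 stood at 14.4, 12.6, 13.4 and 12.8 CPM in the telencephalon of tradeoff males and at 9.73, 12.002, 8.68 and 12.3 CPM in control males. All courtship and challenge males were at 11.6 CPM or less there, so that the 4 tradeoff males were above all 13 others. The margin was small, 12.6 against 12.3 CPM in the highest control, the gene was picked for its low p, and the share of all genes that lie so was not counted. In the diencephalon its groups overlapped, at 22.4 to 32.7 CPM in tradeoff males and 21.3 to 24.8 CPM in control males. On the lower side stood ENSGACG00000014011 (log2 fold -0.93, SE 0.24) and ENSGACG00000016002 (log2 fold -0.25, SE 0.06). ENSGACG00000016002 was at 27.5 to 29.3 CPM in the diencephalon of tradeoff males and at 30.6 to 35.1 CPM in control males, without overlap. In the telencephalon it was at 32.5 to 36.8 CPM and 36.7 to 44.6 CPM, where tradeoff male 321 just passed the lowest control.

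Whether the response to the tradeoff differed between the regions was tested gene by gene, as the telencephalon log2 fold minus the diencephalon one. Of 18923 genes, 0 (0%) passed in edgeR (smallest adjusted p 0.99996), and 386 (2.04%) had an unadjusted p under 0.05, with a positive difference in 127 (0.671%) and a negative one in 259 (1.37%). limma voom called 0 genes and DESeq2 1, again ENSGACG00000008991, whose telencephalon counts were given above. This main fit had no term for the male, so it treated both libraries of a male as independent, and the SEs below are from it. With the male as a block, edgeR made 0 calls, and 605 genes reached an unadjusted p under 0.05. Without control male 304 the count was 205, with 99 positive and 106 negative, and without control male 303 it was 582. The 95% interval of the difference lay within 2-fold in 84.3% of 16270 genes.

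ENSGACG00000012513, a gene with higher levels in the diencephalon, had the lowest p for a regional difference (log2 difference -1.64, SE 0.39, edgeR adjusted p = 0.99996). Its telencephalon levels were 0.965, 0.487, 1.17 and 0.701 CPM in tradeoff males and 1.35, 4.13, 2.02 and 1.87 CPM in control males, without overlap and with control male 304 highest. Its diencephalon levels were 8.05, 7.09, 7.37 and 6.81 CPM in tradeoff males and 5.44, 6.78, 7.83 and 6.24 CPM in control males, which overlapped. Without control male 304 the log2 difference was -1.26 (SE 0.36). ENSGACG00000007902 stood at 0.502, 0.715, 0.703 and 0.536 CPM in the telencephalon of tradeoff males and at 0.698, 11.5, 0.364 and 7.39 CPM in control males (log2 difference -3.06, SE 0.80). Only control males 304 and 308 were high there, the libraries with high diencephalon-enriched genes, whereas tradeoff male 321, which shared that trait, was low. In the diencephalon it stood at 14.4 to 28.8 CPM in tradeoff males and 18.8 to 24.3 CPM in control males. Without the telencephalon libraries of males 298, 304, 308 and 321 its log2 difference was 0.12, of the opposite sign. That setting left out both high controls of this gene, so the loss of its negative difference was largely built in.

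On the positive side, ENSGACG00000017959 had levels that differed in the diencephalon, at 0.603, 0.409, 0.305 and 1.05 CPM in tradeoff males and 1.098, 1.47, 2.03 and 1.55 CPM in control males, without overlap. In the telencephalon it stood at 3.01 to 5.46 CPM in tradeoff males and 2.20 to 5.20 CPM in control males (log2 difference 1.66, SE 0.46). In the diencephalon the courtship (0.706 to 0.899 CPM) and challenge males (0.369 to 0.922 CPM) were also below all 4 controls, so that here the control males stood apart from the other 13. The share of all genes that lie so was not counted. ENSGACG00000013917 stood at 0.438, 0.642, 0.712 and 0.155 CPM in the diencephalon of tradeoff males and at 0.824, 5.88, 0.852 and 0.630 CPM in control males. In the telencephalon it was at 23.2 to 28.5 CPM in tradeoff males and 11.2 to 29.9 CPM in control males, with control male 304 lowest (log2 difference 2.34, SE 0.69). Control male 304 was thus the high control in one region and the low one in the other, and without this male the log2 difference was 0.66 (SE 0.45). In the fit with the male as a block, the log2 differences were 1.72 for ENSGACG00000017959, 2.08 for ENSGACG00000013917, -1.60 for ENSGACG00000012513 and -2.42 for ENSGACG00000007902. The unadjusted edgeR p rose to 0.025 for ENSGACG00000007902 (from 0.00070) and to 0.043 for ENSGACG00000013917 (from 0.0020). It was 0.0013 for ENSGACG00000017959 (from 0.0011) and 6.3e-05 for ENSGACG00000012513 (from 0.00018).

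**Figure D5:**
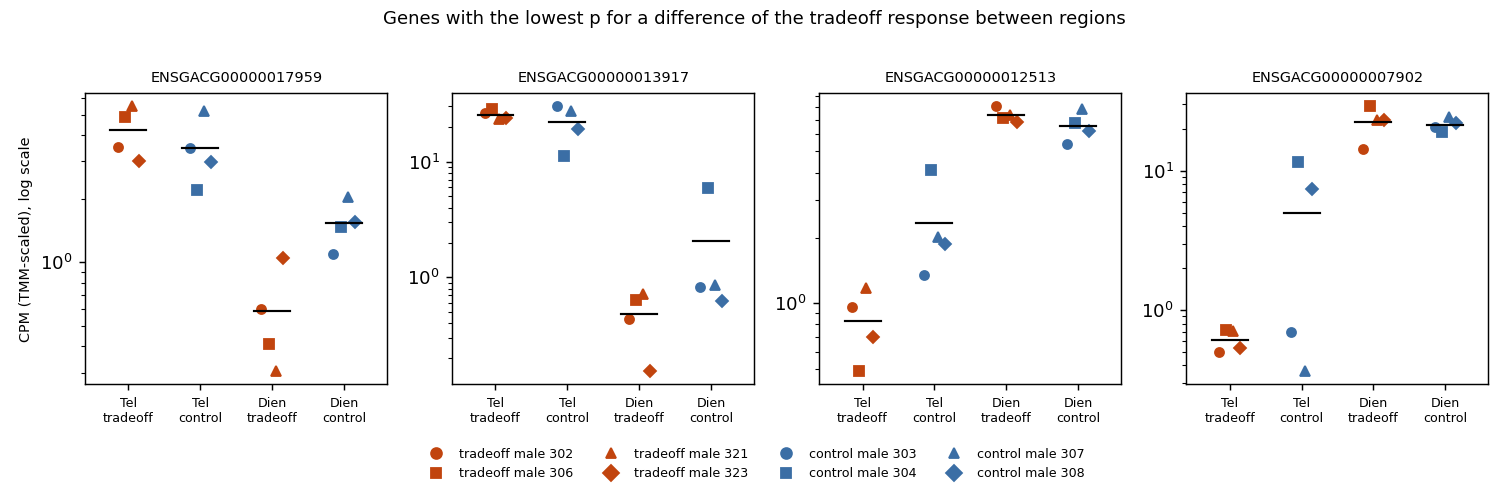
Level in CPM (vertical axes, log scale) in the libraries of the tradeoff and control males (4 each), telencephalon (Tel) and diencephalon (Dien), of the genes of lowest p for a regional difference, with positive differences in the left pair of panels and negative ones in the right pair. Symbols mark males and bars the arithmetic mean of 4; the squares of control male 304 stand away from the other controls in ENSGACG00000013917 (5.88 CPM in the diencephalon) and ENSGACG00000007902 (11.5 CPM in the telencephalon).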

How the data were processed

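The authors deposited raw read counts per gene model, 1 file per library, from stranded mRNA libraries. The submitters' processing notes name STAR and HTSeq. Versions, strand setting, annotation and genome build were not given in the sources used. Whether reads of overlapping or antisense genes were told apart is therefore not known. The 5 summary rows of each file were left out of library sizes and tests; in tradeoff and control males, gene models held 39.8% to 42.1% of a telencephalon file (reads without a unique position, 18.5% to 21.9%) and 58.3% to 61.5% of a diencephalon file (3.87% to 4.29%). From the counts, edgeR 4.0.16 in R 4.3.3 (TMM factors, filterByExpr, robust quasi-likelihood F test, Benjamini-Hochberg adjustment over all genes tested) compared tradeoff with control in each region over its 17 libraries of all treatments, over 17 per-male sums, and between regions over all 34 libraries. Standard errors are the log2 fold divided by the square root of F. CPM of single genes use the totals over genes that passed the filter and the TMM factors of the regional fit. Sums over region-enriched genes use the plain totals. DESeq2 1.42.0 and limma 3.58.1 were alternatives, along with RLE size factors, no filter, the compared groups alone and single males left out. The code was tested on simulated data.

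Named genes are the 2 per direction with the lowest p in each region, in both regions (smallest larger p), for the regional difference, and for the per-male sums, with a mean of at least 1 CPM. The members, rules and alternatives were chosen with earlier results of these data known. The 10 gene lists and 11 marker lists fixed by symbol were not used, as no identifier matched. The 24 pairs of libraries within a group differed well beyond sampling noise (chi-square over degrees of freedom 21.6 to 65.3), so each library counted as 1 replicate. Labels name separate males. Male numbers pair the regions, since a male gave both libraries. The deviations of a male's libraries from their group means correlated over genes with a mean r of 0.378 (-0.0474 to 0.545, 8 males). The lowest r, -0.0474, was that of control male 304. Between libraries of different males the mean r was -0.0539 (-0.330 to 0.232, 56 pairs). Deviations from a group mean cancel out within the group, which by itself pulls pairs of different males of a group toward negative r. The value for different males is therefore not a neutral baseline. Of the 8 telencephalon libraries, 7 were closest to their own male, all but that of control male 304, and the cause was not tested. Without molecular identifiers, counts may include copies of one molecule.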

Additional observations from a re-analysis of the deposited data

Results flagged for a closer look

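A search for single values standing off from their group covered 100 sets of 4 libraries (the named genes and library measures in each region and group) and found 7, where chance flags about 1 in 20 sets.

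Tradeoff male 306 had 30682988 counts in the telencephalon, the next tradeoff male having 25426404. Control male 303 had 56.4 CPM of ENSGACG00000009538 in its telencephalon, the other controls 40.0 CPM or less. ENSGACG00000016002 stood at 27.5 CPM in the diencephalon of tradeoff male 323 and at 29.0 CPM or more in the other tradeoff males. ENSGACG00000012805 stood at 4.06 CPM in the diencephalon of control male 308 and at 7.41 CPM or more in the other controls.

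The remaining 3 values belong to control male 304, whose part in the results was not tested beyond leaving it out. ENSGACG00000002649 stood at 5.88 CPM in its telencephalon and at 3.58 CPM or less in the other controls. ENSGACG00000013917 stood at 5.88 CPM in its diencephalon and at 0.852 CPM or less in the other controls. The 100 most abundant models took 18.6% of the counts of its diencephalon library, the next lowest control having 20.7%.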

How the results depend on the processing

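edgeR and limma called 0 genes under each alternative run for the 4 comparisons, and DESeq2 called 1 gene in the telencephalon and 1 for the regional difference, with 0 elsewhere. With the replicate block of the male, 0 genes were called for the regional difference, and the block changed no call. Counts at an unadjusted p under 0.05 with a male left out ran from 354 to 914 in the telencephalon, 434 to 982 in the diencephalon, 352 to 787 for the sums and 205 to 582 for the regional difference. The highest of each range came without control male 303, and the cause was not tested. With 3 males in a group, the genes whose groups lay apart numbered 619 to 973 for the telencephalon (319 with all males) and 583 to 1179 for the diencephalon (326 with all males), as fewer males separate more easily. The correlation between regions turned to -0.0576 with different males in each region and ran from 0.241 to 0.464 with a male left out. Of 24 results on named genes under 348 alternatives, 0 passed an adjusted p of 0.05 (lowest 0.123) and 1 changed sign, ENSGACG00000007902 (0.12). Differences of medians turned sign against differences of means for 4 telencephalon measures, the no-feature share (0.0474 points), the not-unique share (0.224 points), the chrY share (0.00427 points) and the share of the 100 most abundant models (-0.108 points), none of them past a test. With 3 against 4 males the exact test cannot go below 0.0571. In the fits of 17 libraries a region, the median SE of a log2 fold was 0.14 in the telencephalon and 0.12 in the diencephalon.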
